A study of Mus musculus with 4 samples.

Results

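The vascular leptomeningeal class comprised the nuclei that the authors' deposited annotation labels as vascular leptomeningeal cells, 323 of 9724 nuclei of mouse superior colliculus, a midbrain structure that receives visual input. The libraries were made from C57BL/6J mice at embryonic day 19 (E19) and postnatal days 4, 8 and 21 (P4, P8 and P21), with no mutation, transgene or treatment named in the labels. Each stage was 1 library of nuclei from pooled animals, and the sources used here do not give their number or sex. Molecules were counted per gene as unique molecular identifiers (UMIs) with a 3′ droplet assay in isolated nuclei. With 1 library per stage no difference between stages could be tested, so no p-value is given. Intervals are exact 95% Poisson or Clopper-Pearson intervals and cover counting error only.

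Vascular leptomeningeal cells are fibroblast-like cells of the leptomeninges, the arachnoid and pia that wrap the brain, and they follow vessels into the tissue. They are known for making collagens and proteoglycans of the meningeal matrix, for laying down the basement membrane under the glial border with other cells, and for carrying solutes between cerebrospinal fluid and brain. They are also a source of retinoic acid, BMPs and the chemokine Cxcl12 for the developing brain. Meninges cling to dissected brain tissue, so how many of these cells enter a preparation also depends on the dissection.

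Collagen IV genes lie in head-to-head pairs that share an upstream region, and the pair expressed in the class on chromosome X is shown with Col3a1, a fibrillar collagen, and Cyp26b1, a marker whose level differed between stages. Sequences are RefSeq promoters on GRCm38.p6, written 5′ to 3′ on the gene's strand, up to 250 bases before the RefSeq start with bases inside any GENCODE M21 exon left out. Capitals mark matches, on either strand, to a CCAAT box. They also mark the GC box, searched as GGGCGG and so also shown in its reverse complement. The TATA box was searched as TATAAA. Of 32851 RefSeq promoters, 33.8% held a CCAAT match in the 250 bases before the start, 32.7% a GC box match and 12.4% a TATA box match. No matches to different motifs overlapped in the sequences shown, and a match describes letters, not binding.
Col4a6 (chrX:141474077-141474326, minus strand): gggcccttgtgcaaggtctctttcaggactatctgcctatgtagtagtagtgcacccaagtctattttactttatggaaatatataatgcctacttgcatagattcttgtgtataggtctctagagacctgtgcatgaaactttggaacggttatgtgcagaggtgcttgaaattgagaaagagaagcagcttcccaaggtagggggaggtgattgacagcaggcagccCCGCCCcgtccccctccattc
Col4a5 (chrX:141475169-141475384, plus strand): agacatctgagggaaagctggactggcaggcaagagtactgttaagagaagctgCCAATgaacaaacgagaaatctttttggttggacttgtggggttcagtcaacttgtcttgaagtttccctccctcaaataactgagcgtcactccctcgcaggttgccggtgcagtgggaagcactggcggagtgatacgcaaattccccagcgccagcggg
Col3a1 (chr1:45311288-45311537, plus strand): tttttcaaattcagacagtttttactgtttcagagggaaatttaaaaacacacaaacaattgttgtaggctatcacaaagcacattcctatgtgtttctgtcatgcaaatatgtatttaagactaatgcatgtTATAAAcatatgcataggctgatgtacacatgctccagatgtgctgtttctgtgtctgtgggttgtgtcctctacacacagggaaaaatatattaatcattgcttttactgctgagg
Cyp26b1 (chr6:84593909-84594060, minus strand): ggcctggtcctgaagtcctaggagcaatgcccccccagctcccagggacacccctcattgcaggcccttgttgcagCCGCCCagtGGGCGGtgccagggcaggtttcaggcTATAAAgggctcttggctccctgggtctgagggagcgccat

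The Col4a6 and Col4a5 starts face away from each other and lie 1343 bases apart. Upstream of Col4a6 the shown bases held 1 GC box match, and upstream of Col4a5 they held 1 CCAAT match. The Col4a1 and Col4a2 genes, on opposite strands of chromosome 8, start closer still and overlap by 22 bases. Col3a1 and Cyp26b1 each held 1 TATA box match, and Cyp26b1 also held 2 GC box matches.

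The class made up 1.39% at E19 (interval 0.977% to 1.92%) of its library, 3.27% at P4 (interval 2.59% to 4.06%), 2.80% at P8 (interval 2.19% to 3.52%), then 6.18% at P21 (interval 5.22% to 7.26%). These shares stand for 36 of 2585, 78 of 2386, 70 of 2504 and 139 of 2249 nuclei. The P21 share lay above the other libraries and the E19 share below them, while P4 and P8 overlapped. Of non-neuronal nuclei alone, the class was 10.2% at E19, 17.6% at P4, 12.8% at P8, then 16.8% at P21. On that denominator P21 lay between P8 and P4, with an interval of 14.3% to 19.5% that overlapped those of P4 and P8. Whether the number of leptomeningeal cells or the amount of surface tissue taken differed between dissections cannot be told apart from these shares.

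**Figure D1:**
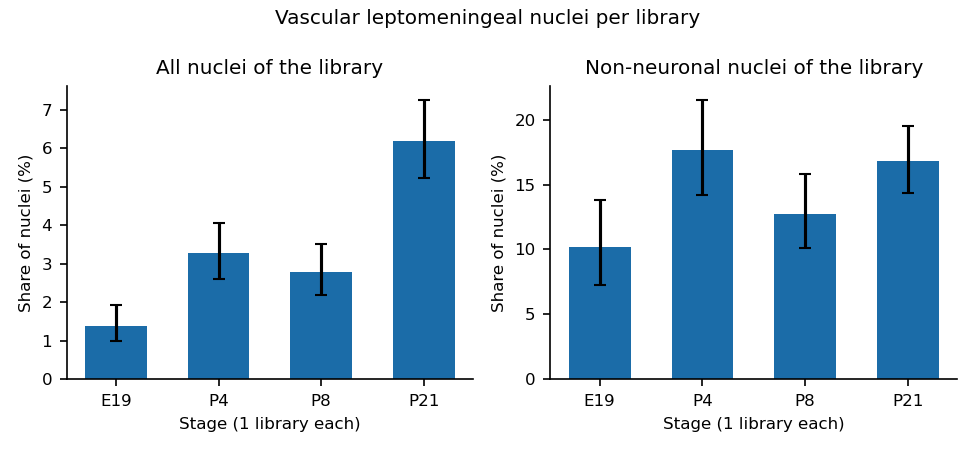
Share of vascular leptomeningeal nuclei in each library, as a percent of all nuclei (left) and of non-neuronal nuclei (right); bars are 1 library each and whiskers are exact 95% intervals for counting error. The P21 bar is the highest on the left, at 6.18%, and lies between the P8 and P4 bars on the right, at 16.8%.

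Depth within the class was similar across stages. Median UMIs per nucleus were 5610 at E19, 6206.5 at P4, 6539 at P8, then 6228 at P21, whereas the median of excitatory neurons went from 8051.5 at E19 to 19601 at P21. Class UMIs summed to between 219944 at E19 and 917467 at P21. A count of 0 therefore allows up to 13.6 CPM (UMIs per 1000000 class UMIs) at E19, 6.09 at P4, 6.23 at P8, then 3.27 at P21. The median percent of UMIs from ribosomal protein genes in the class was 0.685 at E19, 0.520 at P4, 0.382 at P8, then 0.182 at P21, lower at each later stage. For mitochondrial genes it was 0.713 at E19, 1.01 at P4, 0.526 at P8, then 0.499 at P21, highest at P4. Across all libraries 9 barcodes occurred in 2 libraries, and 1 nucleus of the class was among them.

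Col1a2 and Dcn marked the class at every stage, and Cyp26b1 less evenly. The sources used here do not say how the authors assigned classes, so marker levels are a description. Col1a2, a chain of type I collagen (chr6:4504814-4541544), was at 1591 CPM (1429 to 1767) at E19, 914 CPM (831 to 1002) at P4, 812 CPM (734 to 897) at P8, then 659 CPM (608 to 714) at P21. Every stage lay far above the other nuclei of its library, where Col1a2 was at 9.24 to 15.4 CPM. Dcn, the small proteoglycan decorin that binds collagen fibrils (chr10:97479609-97518143), was at 455 CPM at E19, 264 at P4, 266 at P8, then 229 at P21. Like Col1a2 it was highest at E19, and its P4, P8 and P21 intervals overlapped.

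Cyp26b1, which breaks down retinoic acid (chr6:84571414-84593908), was at 105 CPM (66.3 to 157) at E19, 10.2 CPM (3.30 to 23.7) at P4, 108 CPM (80.7 to 142) at P8, then 187 CPM (161 to 218) at P21. At P4 this rested on 5 UMIs, and at E19 18 of 23 UMIs came from 1 nucleus. Without that nucleus the E19 level was 23.9 CPM. A Cyp26b1 UMI was found in 11.1% of class nuclei at E19, 5.13% at P4, 17.1% at P8, then 30.9% at P21, and after thinning to 1500 UMIs in 8.33%, 0%, 7.14% and 12.9%. Cyp26b1 was also present in astrocytes, at 116 CPM at E19 and 57.2 at P21.

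After each nucleus was thinned to 1500 UMIs, a Col1a2 UMI was found in 77.8% of class nuclei at E19, 61.5% at P4, 62.9% at P8, then 58.3% at P21. In excitatory neurons, which should lack it, the thinned share was 1.49% at E19 and 0.440% at P21. Unthinned, the class shares were 97.2% at E19 and 92.1% at P21, and the neuron shares 6.80% and 5.13%. Dcn was found after thinning in 47.2%, 26.9%, 35.7% and 23.7% of class nuclei in the same order. No thinned nucleus was left out, since each deposited nucleus held at least 2355 UMIs.

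Of 18 marker genes listed for the class, 14 reached 20 CPM in all 4 libraries and 13 of these were at least 4-fold above all other nuclei in each. Across all genes, 9.29% of 5684 met that fold. The markers were chosen with earlier results of these data known, so these counts describe them and test nothing. Slc47a1 and Igf2, known from meningeal fibroblasts, were near 0 in the class, at 1.89 and 6.16 CPM pooled over libraries. Slc47a1 was instead at 1118 CPM in the nuclei the authors label epithelial. Those nuclei also held Bnc2 at 6816 CPM, Cped1 at 1193 and Col1a2 at 384, while the choroid plexus marker Folr1 was at 0 there.

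Several defining markers of neighbouring cell types were near 0. The pericyte genes Rgs5 and Kcnj8 were at 2.84 and 0.947 CPM in the class, against 1258 and 168 in the deposited endothelial class. The endothelial junction gene Cldn5 was at 1.89 CPM against 2267 and the border macrophage gene Mrc1 was at 0.947 CPM in the class. Flt1, Slco1a4 and Cdh5, which are listed as endothelial markers, were nonetheless present in the class at 117, 110.4 and 119 CPM. Vtn and Pdgfrb from the pericyte list stood at 335 and 114 CPM. Slc1a3, a glutamate transporter used as an astrocyte marker, was higher in the class than in astrocytes, 1700.0 against 1015 CPM. Gja1 was also higher, 458 against 287 CPM, whereas Aqp4 and Slc1a2 were lower, at 31.3 and 68.2 against 497 and 1688. From the epithelial list, Kl and Kcnj13 were at 79.1 and 46.9 CPM, above every other class, while Folr1 and Krt18 had no UMI in the class. None of the 8 smooth muscle, 10 microglia and 7 border macrophage genes listed reached 100 CPM in the class at P4 or P21.

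**Figure D2:**
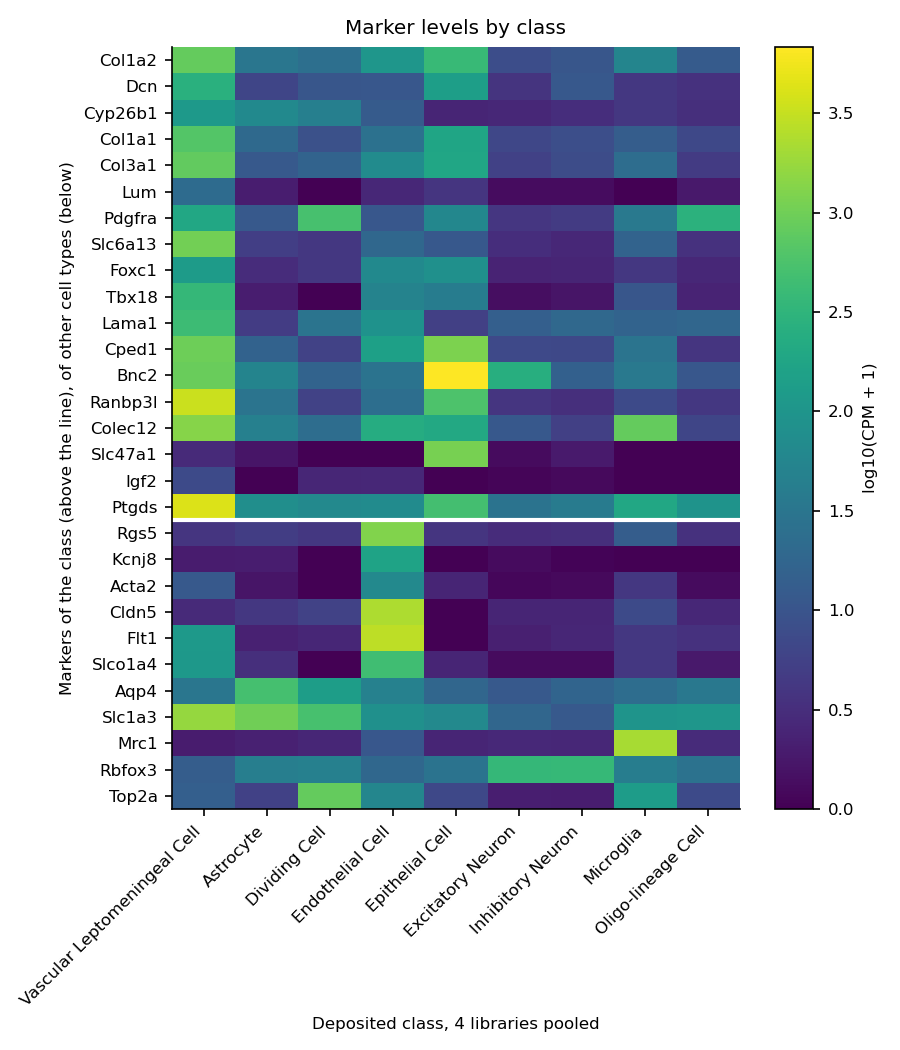
Pooled level of marker genes in the 9 deposited classes, colour giving log10(CPM + 1), with the class markers above the white line and markers of other cell types below it. Most class markers are brightest in the first column; Slc47a1 and Bnc2 are brightest in the epithelial column, at 1118 and 6816 CPM.

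In all 4 libraries, 528 genes were enriched in the class over all other nuclei. Among genes at 100 CPM or more in each library, the widest margin belonged to Slc6a20a, a proline and betaine transporter, at 2046 CPM at E19, 2410.3 at P4, 2553 at P8, then 2946 at P21. Its smallest excess over the other nuclei of a library was 476-fold. Ranbp3l followed, then Slc6a13, the GABA transporter GAT2 of meninges. Others of the 10 were the protease Adamts12, the secreted ligand Bmp6, the basement membrane chain Col4a6 and Ptgds, the prostaglandin D2 synthase of cerebrospinal fluid. The scavenger receptor Colec12 and Arhgap29, a GTPase-activating protein, were also among them.

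Ranbp3l was at 3255 CPM at E19, 3011 at P4, 3054 at P8, then 3686 at P21. Ptgds was at 3860.1 CPM at E19, 4707 at P4, 3609 at P8, then 4447 at P21, and neither gene differed 2-fold between any pair of successive stages. By contrast Slc6a13 was at 1587 CPM at E19, 1367 at P4, 1155 at P8, then 696 at P21, and Bmp6 at 3728 CPM at E19, 2863 at P4, 2896 at P8, then 1603 at P21, both lowest at P21.

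Enrichment over all other nuclei together was not enrichment over every class. In 275 of the 528 genes the class was the highest of the 9 pooled classes, and in 69 it exceeded the next class at least 4-fold. The deposited epithelial class was the next highest for 226 of the 528 and reached or exceeded the leptomeningeal level for 126. The endothelial class was next for 153 and reached or exceeded the class for 126, and microglia for 69. The median log2 ratio of the class over the epithelial class was 0.80, over the endothelial class 1.52, over astrocytes 2.41 and over excitatory neurons 3.49. Colec12 was shared with microglia, at 845 CPM there.

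The stages were compared between P4 and P21, the earlier library with the most class nuclei and the latest one, as the log2 of P21 over P4 after 5 CPM was added to each. That addition understates the change of low genes. Of 2480 genes at 100 CPM or more in the higher stage, 117 (4.72%) were at least 2-fold higher at P21 and 170 (6.85%) at least 2-fold lower. Among the 475 of them that were 4-fold enriched in the class at the higher stage, 59 (12.4%) were higher and 45 (9.47%) lower. Genes entered this set through the stage where they were higher, which favours genes that differ. Its shares therefore describe the set and cannot be compared with those of all genes. The median log2 ratio of all genes compared was -0.02. With median-of-ratios scaling, which moved that median to 0.15, 177 genes were higher and 145 lower. In these sums fewer nuclei of one kind and less RNA per nucleus cannot be told apart.

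**Figure D3:**
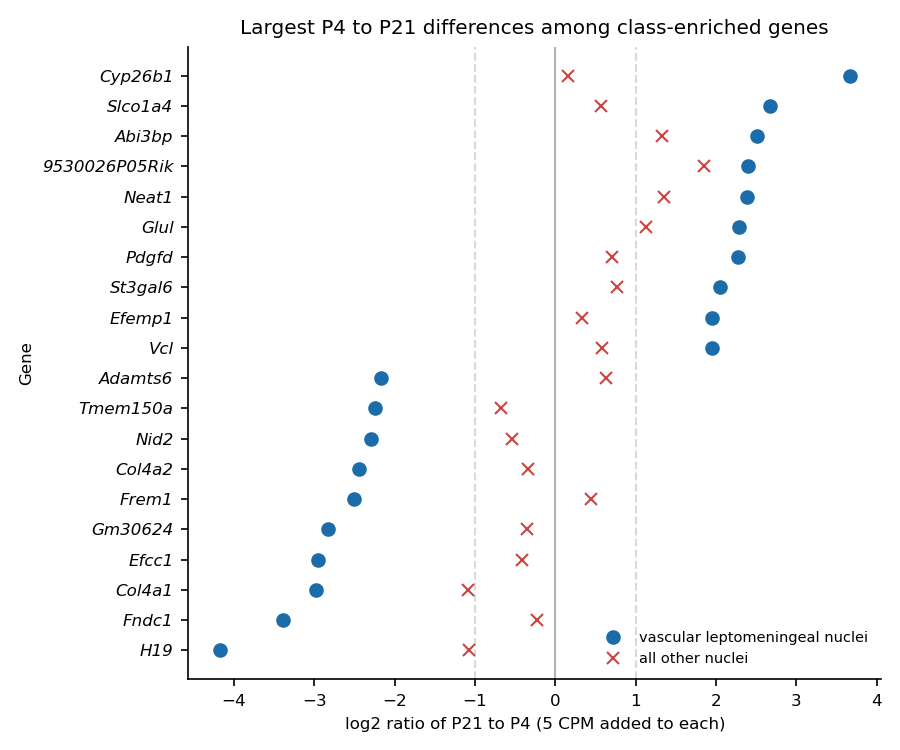
Log2 ratio of P21 to P4 for the 10 class-enriched genes with the largest increase and the 10 with the largest decrease, in the class (dots) and in all other nuclei (crosses); dashed lines mark 2-fold. H19 lies farthest left, at -4.18, and Cyp26b1 farthest right, at 3.67, while the crosses of most genes lie inside the 2-fold lines.

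Fibrillar collagens were lower at P21. Col1a1, the other chain of type I collagen, was at 1264 CPM (1119.7 to 1422) at E19, 784 CPM (708 to 866) at P4, 698 CPM (625 to 777) at P8, then 379 CPM (340.5 to 421) at P21. Each successive level was lower, although P4 and P8 overlapped, and the P21 level was lower than the P4 level 2.07-fold (95% interval 1.78 to 2.40). Col3a1, type III collagen, was at 2028 CPM at E19, 889 at P4, 925 at P8, then 409 at P21, with a first step down between E19 and P4 and a second between P8 and P21. Col1a2, the marker chain, was lower at P21 than at P4 by less, 1.39-fold (95% interval 1.22 to 1.57). Of 7 fibrillar collagen genes at 100 CPM or more, 3 were at least 2-fold lower (Col1a1, Col3a1 and Col27a1) and 0 higher. The median log2 ratio was -0.71, beside -0.02 over all genes compared, of which 6.85% were 2-fold lower and 4.72% higher.

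Genes that fold and cleave collagens were mixed. Serpinh1, the collagen chaperone Hsp47, was at 427 CPM at E19, 217 at P4, 104 at P8, then 107 at P21, lowest at P8 and P21. Timp3, an inhibitor of matrix proteases, was highest at P21, at 423 CPM at E19, 254 at P4, 357 at P8, then 560.2 at P21. Of 6 members compared, Timp3 was 2-fold higher at P21 and none was 2-fold lower, beside 4.72% and 6.85% of all genes. Adamts2, which trims the amino ends of procollagen, was at 146 CPM at P4 and 241 at P21.

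Basement membrane genes split. Col4a1 (chr8:11198423-11312826) and Col4a2 (chr8:11312805-11449287), which form the common collagen IV network, were lower at P21. Col4a1 was at 773 CPM (661 to 898) at E19, 619 CPM (552 to 693) at P4, 478 CPM (418 to 544) at P8, then 74.1 CPM (57.6 to 94) at P21. Col4a2 was at 523 CPM (432 to 628) at E19, 313 CPM (265 to 366) at P4, 384 CPM (331 to 444) at P8, then 53.4 CPM (39.5 to 70.6) at P21. In both genes E19, P4 and P8 were high and P21 low, with no overlap of the P21 interval with any earlier one; P21 was lower than P4 8.36-fold (95% interval 6.41 to 11) for Col4a1 and 5.86-fold (95% interval 4.22 to 8.25) for Col4a2. At P21 Col4a2 in the class was close to that in all other nuclei, 53.4 against 35.7 CPM.

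Col4a5 (chrX:141475385-141689234) and Col4a6 (chrX:141165403-141474076), which encode partner chains of a second collagen IV network, were lower at P21 by less than 2-fold. Col4a5 was at 782 CPM at E19, 670.1 at P4, 573 at P8, then 424 at P21, and Col4a6 at 877 CPM at E19, 659.9 at P4, 603 at P8, then 359 at P21. Their P21 levels were lower than those at P4 1.58-fold (95% interval 1.36 to 1.83) and 1.84-fold (95% interval 1.57 to 2.15). These intervals did not overlap those of Col4a1 and Col4a2. In the class sums each pair of neighbouring genes thus had a similar ratio in both chains, larger for Col4a1 and Col4a2 than for Col4a5 and Col4a6. Within sub-cluster 2, described further on, Col4a6 went the other way, with a log2 ratio of 0.65 against -0.87 in the class. The 10 pericyte markers, some of which are also expressed by leptomeningeal cells, summed to 577 CPM in the class at P4 and 377 at P21. Among them Rgs5 and Kcnj8 were near 0. The part of pericyte RNA in these collagen IV ratios was not tested.

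Nid2, which links laminin to collagen IV, was at 618 CPM at E19, 398 at P4, 320.0 at P8, then 77.4 at P21. Among laminin chains, Lamb1 was at 350.1 CPM at E19, 167 at P4, 148 at P8, then 41.4 at P21 and Lamc3 at 236 CPM at E19, 272 at P4, 357 at P8, then 89.4 at P21, both low at P21. Lama2, the alpha chain of a muscle and glial-border laminin, was highest at P21, at 846 CPM at E19, 857 at P4, 1139 at P8, then 1572 at P21, and Lamc1, the common gamma chain, stayed within a narrow range, 350.1 to 422 CPM. Smoc1, a matricellular calcium-binding protein, was at 473 CPM at E19, 329 at P4, 224 at P8, then 607 at P21. Of 14 basement membrane genes compared, 6 were at least 2-fold lower (Lamb1, Lamc3, Col4a1, Col4a2, Col18a1 and Nid2) and 0 higher. The list's median log2 ratio was -0.78, and of all genes compared 6.85% were 2-fold lower and 4.72% higher.

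**Figure D4:**
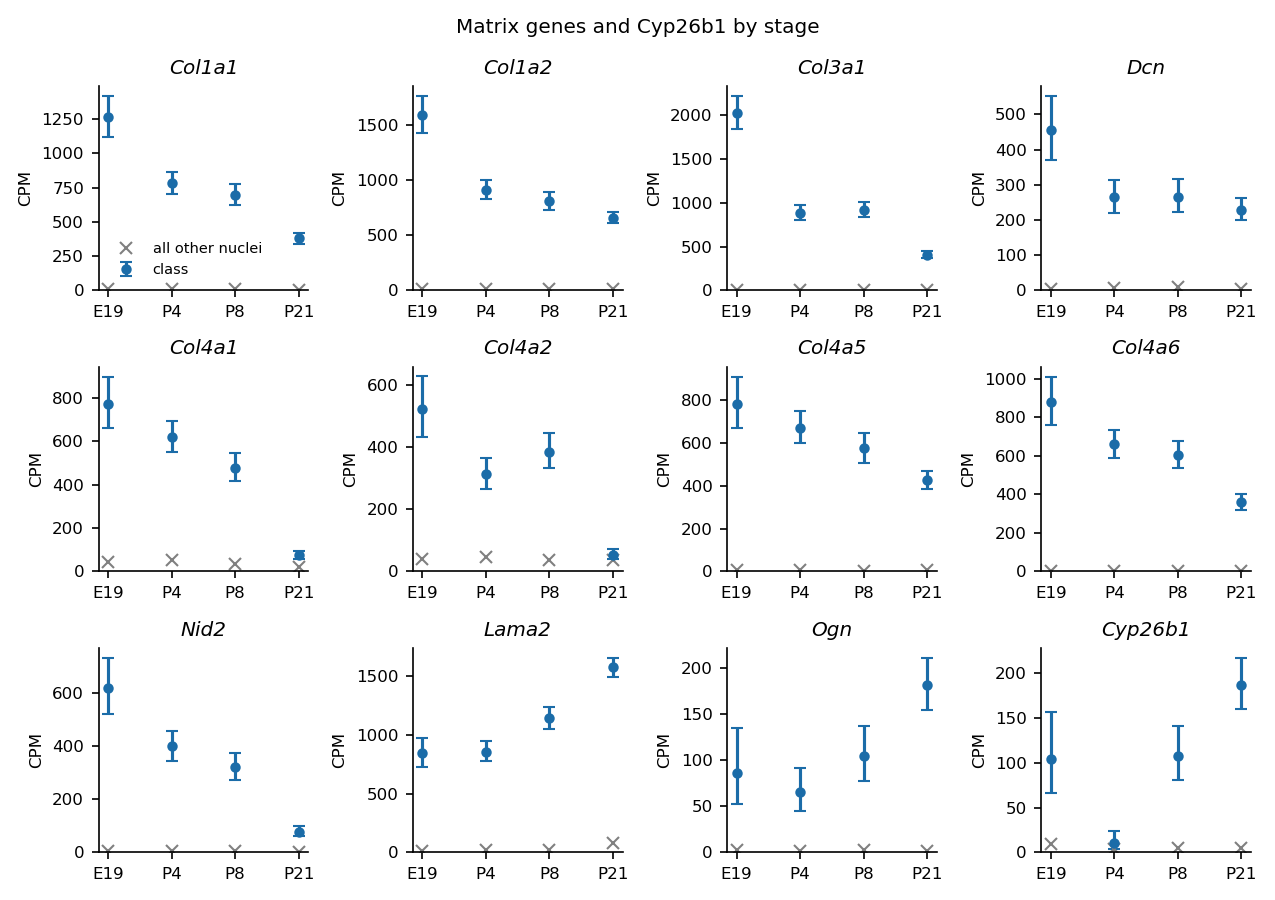
Levels of matrix genes and of Cyp26b1 in the class at each stage (CPM, linear axes from 0), with exact 95% Poisson intervals; crosses are all other nuclei of the same library. Col4a1, Col4a2 and Nid2 are at 74.1, 53.4 and 77.4 CPM at P21, whereas Lama2 and Ogn are highest there.

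The remaining collagens were mostly lower as well. Of 6 compared, 5 were at least 2-fold lower at P21: the beaded-filament chains Col6a1 and Col6a3, the fibril-associated Col12a1, and the transmembrane Col13a1 and Col23a1. Col23a1 was at 982 CPM at E19, 879 at P4, 956 at P8, then 332 at P21, similar until P8. Col13a1 was at 214 CPM at E19, 325 at P4, 253 at P8, then 113 at P21. Col26a1 was the exception, at 536 CPM at E19, 556 at P4, 625 at P8, then 467 at P21. The median log2 ratio of these collagens was -1.35, and of all genes compared 6.85% were 2-fold lower.

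Small leucine-rich proteoglycans, which bind and space collagen fibrils, were mixed. Ogn, osteoglycin, was at 86.4 CPM (52 to 135) at E19, 65 CPM (44.4 to 91.7) at P4, 104 CPM (77.1 to 137) at P8, then 181 CPM (154 to 211) at P21, higher at P21 than at P4 2.78-fold (95% interval 1.90 to 4.20). Omd, osteomodulin, was at 9.09 CPM at E19, 2.03 at P4, 4.16 at P8, then 50.1 at P21, and Podn at 9.09 CPM at E19, 16.2 at P4, 27 at P8, then 55.6 at P21; both were highest at P21. Fmod, fibromodulin, was at 291 CPM at E19, 136 at P4, 127 at P8, then 223 at P21, and Dcn stayed level from P4. Bgn, biglycan, was lower at each later stage, at 155 CPM at E19, 91.4 at P4, 54 at P8, then 37.1 at P21. 3 of 16 members reached 100 CPM at P4 or P21, of which 1 (Ogn) was 2-fold higher, beside 4.72% of all genes.

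Among matrix glycoproteins, Efemp1 (fibulin-3) was at 86.4 CPM at E19, 60.9 at P4, 129 at P8, then 251 at P21, higher at P21 than at P4 4.12-fold (95% interval 2.81 to 6.24). Vcan, the large proteoglycan versican of immature matrix, was at 155 CPM at E19, 144 at P4, 72.7 at P8, then 18.5 at P21, lower at P21 7.78-fold (95% interval 4.53 to 14.1). Within sub-cluster 2, described further on, Vcan had 0 UMIs at P4 and 2 at P21, a log2 ratio of 1.38 that rests on those counts. The fibrillin of developing microfibrils, Fbn2, was at 1068 CPM at E19, 684 at P4, 623 at P8, then 362 at P21, and the periostin gene Postn at 241 CPM at E19, 73.1 at P4, 54 at P8, then 21.8 at P21. Fibronectin, Fn1, showed no such trend, at 336 CPM at E19, 248 at P4, 218 at P8, then 301 at P21. Of 11 members compared, 1 was 2-fold higher (Efemp1) and 2 lower (Sparcl1 and Vcan), with a median of -0.17. The shares over all genes were 4.72% higher and 6.85% lower.

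Matrix and secreted proteins outside these lists included Abi3bp, Fndc1, Frem1 and Adamts6. Abi3bp, an extracellular protein that binds collagen, was at 9.09 CPM at E19, 50.8 at P4, 43.6 at P8, then 312 at P21, and was higher at P21 6.14-fold (95% interval 4.08 to 9.65). Fndc1, with fibronectin domains, was at 277 CPM at E19, 207 at P4, 172 at P8, then 15.3 at P21, lower 13.6-fold (95% interval 7.73 to 25.7). Frem1, a basement membrane protein of the Fras family, was at 173 CPM at E19, 104 at P4, 79 at P8, then 14.2 at P21; at P4, 17 of its 51 UMIs came from 1 nucleus. Adamts6, a matrix protease, was at 159 CPM at E19, 234 at P4, 231 at P8, then 48 at P21.

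Many of the listed transporters were enriched in the class at all stages. Of 23 transporter genes at 20 CPM or more in all libraries, 16 were enriched in the class in all 4, beside 9.29% of all genes. The list was chosen with earlier results of these data known, so this count describes it and tests nothing. Slc7a11, the cystine and glutamate exchanger, was at 714 CPM (607 to 835) at E19, 1218 CPM (1123 to 1319.8) at P4, 2651 CPM (2508 to 2801) at P8, then 2601 CPM (2497 to 2707) at P21. It was low at E19 and P4 and high at P8 and P21, whose intervals overlapped. Slc38a2, a neutral amino acid transporter, was at 268 CPM at E19, 215 at P4, 212 at P8, then 643 at P21, its higher level appearing at P21 alone. Slc22a6 and Slc22a8, organic anion transporters that clear solutes from cerebrospinal fluid, were at 207 and 221 CPM at P4 and 119.9 and 238 at P21.

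Slco1a4, an organic anion transporter otherwise typical of brain endothelium, was at 13.6 CPM (2.81 to 39.9) at E19, 26.4 CPM (14.1 to 45.1) at P4, 79 CPM (55.9 to 108) at P8, then 195 CPM (168 to 226) at P21. Each level was above the one before, although the E19 and P4 intervals overlapped and rested on 3 and 13 UMIs. P21 was higher than P4 7.39-fold (95% interval 4.21 to 14.2). Of 15 transporters compared, 2 were 2-fold higher at P21 (Slc7a11 and Slc38a2), 0 lower, and the median was 0.10. Of all genes compared, 4.72% were higher and 6.85% lower. Slc1a3, the glutamate transporter, was at 2155 CPM at E19, 2069 at P4, 2348 at P8, then 1053 at P21, just inside 2-fold with a log2 ratio of -0.97.

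Retinoic acid genes were present on both the making and the breaking side. Aldh1a2, the main retinoic acid synthesising enzyme of meninges, was at 259 CPM at E19, 435 at P4, 476 at P8, then 495 at P21. It was lowest at E19 and level after P4. Aldh1a1, a second such enzyme, was at 72.7 CPM at E19, 109.7 at P4, 245 at P8, then 246 at P21, higher at P21 than at P4 2.25-fold (95% interval 1.66 to 3.08). Rdh10, which makes the retinal these enzymes use, was at 45.5 CPM at E19, 91.4 at P4, 76.9 at P8, then 31.6 at P21. The breakdown enzyme Cyp26b1, described above, had the largest increase of all class-enriched genes, with a log2 ratio of 3.67 from 10.2 to 187 CPM.

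The receptor Rarb was at 450.1 CPM at E19, 426 at P4, 368 at P8, then 244 at P21, lowest at P21. Of 7 retinoic acid genes compared, 2 were 2-fold higher (Aldh1a1 and Cyp26b1) and 0 lower, with a median of -0.30. The shares of all genes were 4.72% higher and 6.85% lower. Of the 11 members at 20 CPM or more in all libraries, 7 were enriched in the class in all 4, beside 9.29% of all genes. This list too was chosen with earlier results of these data known, so the count is a description. In all other nuclei Aldh1a1 was also higher at P21, with a log2 ratio of 2.05, whereas Cyp26b1 there was at 0.16.

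H19, an imprinted non-coding RNA of fetal tissues, was the class-enriched gene with the largest decrease. It was at 386 CPM (309 to 478) at E19, 164 CPM (131 to 204) at P4, 206 CPM (167 to 250.4) at P8, then 4.36 CPM (1.19 to 11.2) at P21, and the P21 level was lower than the P4 level 37.7-fold (95% interval 14.2 to 142). At P21 3 of 139 nuclei held an H19 UMI, against 31 of 78 at P4. Igf2, its imprinted neighbour, had 13 UMIs in the class over all stages. Igf2bp3, an RNA-binding protein of embryonic tissue, was at 114 CPM at E19, 69 at P4, 24.9 at P8, then 10.9 at P21. Igfbp2, an IGF-binding protein, was at 1437 CPM at E19, 587 at P4, 598 at P8, then 565 at P21, high at E19 and level thereafter. Of 6 IGF pathway genes compared, H19 was 2-fold lower and 0 were higher, beside 6.85% and 4.72% of all genes.

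The BMP ligands Bmp7 and Bmp5 differed by less than 2-fold between P4 and P21. Bmp7 was at 468 CPM at E19, 389.9 at P4, 411 at P8, then 238 at P21, and Bmp5 at 577 CPM at E19, 280.2 at P4, 521 at P8, then 239.8 at P21, without a steady order. None of 10 BMP and TGF-beta genes compared was 2-fold higher or lower between P4 and P21, and the median was -0.17, beside 4.72% of all genes higher and 6.85% lower. Bmp2, which did not reach 100 CPM, was over 2-fold lower at P21, at 59.1 CPM at E19, 50.8 at P4, 58.2 at P8, then 15.3 at P21. Among Wnt genes, the target and effector genes Axin2 and Lef1 were lower at P21, at 44.7 against 104 CPM and 52.3 against 171. The Wnt enhancer Rspo2 was higher, at 268 against 95.4 CPM, though 1 nucleus held 21 of its 47 UMIs at P4. The ligands Wnt4, Wnt5a, Wnt5b and Wnt6 differed by less than 2-fold. Of 8 Wnt genes compared 1 was higher and 2 lower, with a median of -0.14.

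Among growth factors and receptors that act in vessels and glia, a minority differed between P4 and P21. Pdgfd, a ligand of the PDGF receptor beta, was at 63.7 CPM (34.8 to 107) at E19, 169 CPM (134 to 209) at P4, 274 CPM (229 to 325) at P8, then 832 CPM (774 to 893) at P21. Every stage exceeded the one before without overlap, and P21 was higher than P4 4.93-fold (95% interval 3.93 to 6.27). Fgf1 was at 13.6 CPM at E19, 71.1 at P4, 37.4 at P8, then 171 at P21, and the receptor Egfr at 196 CPM at E19, 239.6 at P4, 276 at P8, then 514 at P21. Ptn, pleiotrophin, was lowest at P21, at 3355 CPM at E19, 2731 at P4, 3746 at P8, then 1378 at P21. Of 12 members compared 3 were 2-fold higher (Pdgfd, Fgf1 and Egfr) and 0 lower, with a median of -0.03. Of all genes compared, 4.72% were higher and 6.85% lower.

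Cxcl12, the meningeal chemokine that guides migrating neurons and precursors, was at 450.1 CPM (366 to 548) at E19, 195 CPM (158 to 238) at P4, 216 CPM (177 to 262) at P8, then 52.3 CPM (38.6 to 69.4) at P21. It was highest at E19, similar at P4 and P8 and lowest at P21, lower than at P4 3.73-fold (95% interval 2.61 to 5.38). The log2 ratio of Cxcl12, -1.80, was -1.09 after thinning to 1500 UMIs and -1.05 within sub-cluster 2, described further on. No other sub-cluster had 10 or more nuclei at both P4 and P21. Among the 7 P4 and 12 P21 nuclei with UMIs of fewer than 3 neuron marker genes the Cxcl12 ratio was -0.06. Il34, a ligand of the microglial Csf1 receptor, was at 473 CPM at E19, 242 at P4, 378 at P8, then 260.5 at P21 and showed no order by stage. The complement gene C4b was at 4.55 CPM at E19, 10.2 at P4, 64.4 at P8, then 62.1 at P21, higher at P8 and P21 than before. Of 6 chemokine and complement genes compared, Cxcl12 was 2-fold lower and 0 were higher, beside 6.85% and 4.72% of all genes.

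Guidance cues included some of the clearer differences. Slit3, a secreted repellent read by Robo receptors, had no UMI at E19, which allows up to 13.6 CPM, and was at 99.5 CPM at P4, 89.3 at P8, then 363 at P21. At P8, 24 of 43 Slit3 UMIs came from 1 nucleus. The secreted semaphorins Sema3d and Sema3a were at 65 and 573 CPM at P4 and 214 and 863 at P21. The membrane-bound Sema6a was lower, at 637 CPM at E19, 508 at P4, 347 at P8, then 134 at P21, and the ephrin receptor Epha7 likewise, at 1146 CPM at E19, 895 at P4, 752 at P8, then 404 at P21. Robo1 was at 1823 CPM at E19, 2473 at P4, 2406 at P8, then 2343 at P21, level after E19. Of 13 guidance genes compared 2 were 2-fold higher (Slit3 and Sema3d) and 2 lower (Sema6a and Epha7), with a median of -0.08. Beside this, 4.72% of all genes were higher and 6.85% lower.

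Transcription factors showed few differences, as did all genes compared. Foxc1, required for meningeal development, was at 118 CPM at E19, 106 at P4, 133 at P8, then 132 at P21. Tbx18, a T-box factor of mural and leptomeningeal cells, was at 514 CPM at E19, 430.5 at P4, 521 at P8, then 201 at P21, while the related Tbx15 was at 68.2 CPM at E19, 58.9 at P4, 64.4 at P8, then 129 at P21. Zic1, Zic4, Foxd1, Foxp2 and Nr2f2 differed by less than 2-fold between P4 and P21. Creb3l1, a factor known to drive collagen production, was at 109 CPM at E19, 85.3 at P4, 58.2 at P8, then 22.9 at P21. Of 20 factors compared, 1 was higher (Tbx15), 2 were lower (Tbx18 and Lef1) and 17 lay between, with a median of -0.01, beside 4.72% higher and 6.85% lower over all genes.

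Among adhesion and junction genes most differed by less than 2-fold, as did most of all genes compared. Alcam, an adhesion molecule of the immunoglobulin family, was at 2196 CPM (2005 to 2401) at E19, 2435 CPM (2299 to 2576) at P4, 2570.1 CPM (2429 to 2717) at P8, then 8393 CPM (8206 to 8582) at P21. The first 3 stages lay close together, and P21 was higher than P4 3.45-fold (95% interval 3.24 to 3.67), while in all other nuclei the log2 ratio was -0.58. Gja1, connexin 43, was at 982 CPM at E19, 585 at P4, 486 at P8, then 249 at P21, each stage lower than the one before. Gjb6, connexin 30, was at 141 CPM at E19, 175 at P4, 229 at P8, then 303 at P21, in the opposite order. Tjp1, a tight junction scaffold, and Cldn11, a tight junction claudin, differed by less than 2-fold. Of 14 members compared 2 were higher (Alcam and Itgbl1) and 1 lower (Gja1), with a median of 0.40. Beside this, 4.72% of all genes were higher and 6.85% lower.

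The 10 largest increases also included the following genes. Neat1, a nuclear RNA that scaffolds paraspeckles, was at 18.2 CPM at E19, 67 at P4, 95.6 at P8, then 373 at P21; Glul, glutamine synthetase, at 155 CPM at E19, 54.8 at P4, 87.3 at P8, then 287 at P21; Vcl, the focal adhesion protein vinculin, at 95.5 CPM at E19, 79.2 at P4, 164 at P8, then 319 at P21. St3gal6, a sialyltransferase, was at 36.4 CPM at E19, 42.6 at P4, 72.7 at P8, then 192 at P21, and the non-coding RNA 9530026P05Rik at 132 CPM at E19, 288 at P4, 534 at P8, then 1542 at P21. Neat1, Glul, 9530026P05Rik and Abi3bp were also more than 2-fold higher at P21 in all other nuclei, with log2 ratios of 1.36, 1.13, 1.85 and 1.32. The remaining decreases were Efcc1, Gm30624 and Tmem150a, at 109.7, 317 and 112 CPM at P4 and 9.81, 40.3 and 19.6 at P21.

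Genes of immature cells were mostly lower at P21 in the class. Tubb2b, a beta-tubulin of young cells, was at 718 CPM at E19, 528 at P4, 241 at P8, then 9.81 at P21, with a log2 ratio of -5.17 in the class and -5.18 in all other nuclei. Tmsb10 was at -3.22 and -3.62, and Fabp7 at -4.56 and -3.48. Of 12 members of the immature growth list compared, 8 were 2-fold lower and 0 higher, with a median of -1.99. The shares of all genes were 6.85% lower and 4.72% higher. In all other nuclei 25 of the 117 genes higher in the class were 2-fold higher, and 61 of the 170 lower ones 2-fold lower. Of the 59 class-enriched genes that were higher at P21, 11 were also 2-fold higher in all other nuclei, and of the 45 that were lower, 2 (H19 and Col4a1) were 2-fold lower there, and 3 were 2-fold higher. These genes had been chosen to be enriched at the higher stage, so the counts describe them and test nothing.

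Asic2, an acid-sensing ion channel, stood apart. It was at 3846 CPM (3592 to 4115) at E19, 2725 CPM (2581 to 2875) at P4, 1878 CPM (1758 to 2005) at P8, then 119.9 CPM (98.5 to 145) at P21 in the class, while excitatory neurons went from 1739.6 CPM at E19 to 3485 at P21. The log2 ratio of P21 to P4 was -4.45 in the class and 0.67 in all other nuclei. An Asic2 UMI was nonetheless found in 34.6% of class nuclei at P4 and 44.6% at P21, and after thinning in 23.1% and 18.0%. Sub-cluster 1, described further on, held 3063 Asic2 UMIs and had 33 of 78 class nuclei at P4 and 1 of 139 at P21. At E19 440 of 846 UMIs came from 1 nucleus, without which the level was 1923 CPM. Ptchd4, a patched-domain protein, was among the largest increases without regard to enrichment, at 50.01 CPM at E19, 28.4 at P4, 64.4 at P8, then 260.5 at P21.

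From E19 to P4 the class-enriched genes with the largest decreases were Mamdc2, Fgfbp1 and Cyp26b1, and those with the largest increases Tfdp2, Aox3 and Sphk1. Mamdc2 was at 145 CPM at E19, 8.12 at P4, 8.31 at P8, then 0 at P21, with 14 of its 32 UMIs at E19 in 1 nucleus. Aox3, an aldehyde oxidase, was at 31.8 CPM at E19, 104 at P4, 193 at P8, then 210.4 at P21. From P4 to P8 Cyp26b1, Gpc4 and Ccbe1 were higher and Nnat, Igf2bp2 and Serpinh1 lower; Nnat, an imprinted gene, was at 2069 CPM at E19, 2075 at P4, 937 at P8, then 1302 at P21. From P8 to P21 the largest increases were Thsd4, Abi3bp and Slc9a2 and the largest decreases H19, Fndc1 and Col4a2. Thsd4, a microfibril-binding protein, was at 432 CPM at E19, 201 at P4, 87.3 at P8, then 726 at P21, lowest at P8, and at E19 33 of its 95 UMIs came from 1 nucleus.

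RNA of other cell types was present in the class sums. The oligodendrocyte gene Mobp had no UMI in the class before P21 and was at 40.3 CPM there, close to its level in astrocytes, 43.7, against 3429.9 in the oligodendrocyte lineage. The choroid plexus gene Ttr was at 118 CPM in the class at P4 and had no UMI at E19 or P8. In the P4 library it was also at 662 CPM in astrocytes and 72.6 in excitatory neurons. The 10 neuron markers listed all had UMIs in the class at each stage. They summed to 3796 CPM in the class at E19, 3641 at P4, 3972 at P8, then 1984 at P21. Much of this was Meg3, at 2205 CPM in the class pooled over libraries. Meg3 was also at 1801 CPM in the endothelial and 1839 in the epithelial class, so it was not limited to neurons. Of 4 neuron markers compared between P4 and P21, Meg3 was 2-fold lower and Snap25 2-fold higher, with a median log2 ratio of 0.11. Over all genes 6.85% were lower and 4.72% higher. Oligodendrocyte markers summed to 60.9 CPM at P4 and 730.3 at P21, beside 123 and 2105 in all other nuclei. The 10 markers of dividing cells summed to 182 CPM at E19 and 5.45 at P21, where 7 of them had no UMI. The part of such RNA in the stage differences was not tested. Col4a1, Col4a2 and H19, which were lower in the class at P21, were below the class level in all other nuclei of every library. These genes had been named for enrichment in the class at P4, and the other nuclei were mostly neurons. The comparison therefore describes them and tests nothing.

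The class was not uniform. Leiden clustering of its nuclei gave 5 sub-clusters, numbered by size, with 81, 76, 68, 57 and 41 nuclei. Since they were formed from the expression of these same nuclei, their genes are given as a description. None had 3 listed markers of any cell type among its 10 leading genes, so they are called by number.

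Sub-cluster 1 was led by Asic2, Fndc1, Gm30624, Tmem132c, Adcy7 and Col4a1. It held 17 of 36 nuclei at E19, 33 of 78 nuclei at P4, 30 of 70 nuclei at P8, then 1 of 139 nuclei at P21. Asic2 was at 6444 CPM there and at 47 to 199.6 CPM in the others. Lama1, the laminin chain of the pial basement membrane, was at 1098 CPM, Col4a1 at 1214 and Tbx18 at 856. Adhesion gene Alcam was low, at 412 CPM.

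Sub-cluster 3 was led by H19, Gm19299, Ccbe1, Piezo2, Vstm2a, Mirg and Cd248. It shared the stage distribution of sub-cluster 1, with 12 of 36 nuclei at E19, 27 of 78 nuclei at P4, 28 of 70 nuclei at P8, then 1 of 139 nuclei at P21. H19 was at 470.1 CPM against 33.7 in sub-cluster 1, and Gja1 at 835 against 436. Lama1 was low, at 55.6 CPM, and Alcam higher, at 3039. Among the young sub-clusters it was the one with Cyp26b1, at 137 CPM against 4.21 in sub-cluster 1.

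Sub-clusters 4 and 5 came almost wholly from P21. Sub-cluster 4 held 56 of 139 nuclei at P21 and 1 of 70 nuclei at P8, and sub-cluster 5 held 41 of 139 nuclei at P21 and none earlier. For 0 of 78 nuclei at P4 the interval reaches 4.62%. Sub-cluster 4 was led by Slit3, Ptchd4, Abi3bp, Gm47710, Cyp26b1, Rcan2 and Slco1a4. Its Lama1 was low, at 40.4 CPM, and its Alcam high, at 9335. Sub-cluster 5 was led by Lypd6b, Egr1, Pde10a, Ltbp1, Pla2g4a, Ank and Igfbp5, with Lama1 at 803 CPM, Alcam at 2171 and Dcn at 586.

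Lama1 separated sub-clusters 1 and 5 from 3 and 4 in both the earlier and the P21 nuclei, and Cyp26b1 was higher in 3 and 4, at 137 and 399 CPM, than in 1 and 5, at 4.21 and 54.1. Slit3 divided them the same way, at 179 and 776 CPM in 3 and 4 and 8.42 and 37.4 in 1 and 5. Col4a1 did not keep to this division. It was high in sub-cluster 1 and low in sub-cluster 5, at 1214 and 99.8 CPM, and Asic2 likewise, at 6444 and 199.6. Apart from the leading genes, the genes compared here were picked with their values known.

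Sub-cluster 2 was found at every stage, with 19.4% (interval 8.19% to 36%) at E19, 23.1% (interval 14.3% to 34%) at P4, 15.7% (interval 8.11% to 26.4%) at P8, then 28.8% (interval 21.4% to 37.1%) at P21 of class nuclei, intervals that all overlapped. The same sub-clusters were found at resolution 0.3, but at 0.8 its place was taken by clusters of 40 nuclei, all from P21, and 38 nuclei, all from earlier stages. At resolution 0.5, sub-cluster 2 was led by 5830418P13Rik, Cdh1, Tfcp2l1, Slc9a2, 1700011I03Rik, Pkhd1 and Atp13a5. Cdh1, E-cadherin, an adhesion protein of epithelial-type junctions, was at 144 CPM there, and no nucleus of the other sub-clusters held a Cdh1 UMI. Ptgds was at 10892 CPM, against 562 to 3331 elsewhere, and the organic anion transporter Slc22a8 at 533 against 68.8 to 212. Bnc2 was at 2426 CPM, whereas Col1a1 was low, at 121, as were Dcn at 73.1 and the transporter Slc7a11 at 399. The 18 markers listed for the class summed to 23036 CPM there, against 11498 to 15717 in the other sub-clusters. Ptgds, 1 of these markers, alone gave 10892 of the 23036 CPM, so the sum mostly does not speak for the other markers. Flt1, present in the class as a whole, was at 249 CPM in sub-cluster 2 and 225 in sub-cluster 4 and had no UMI in sub-cluster 1.

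**Figure D5:**
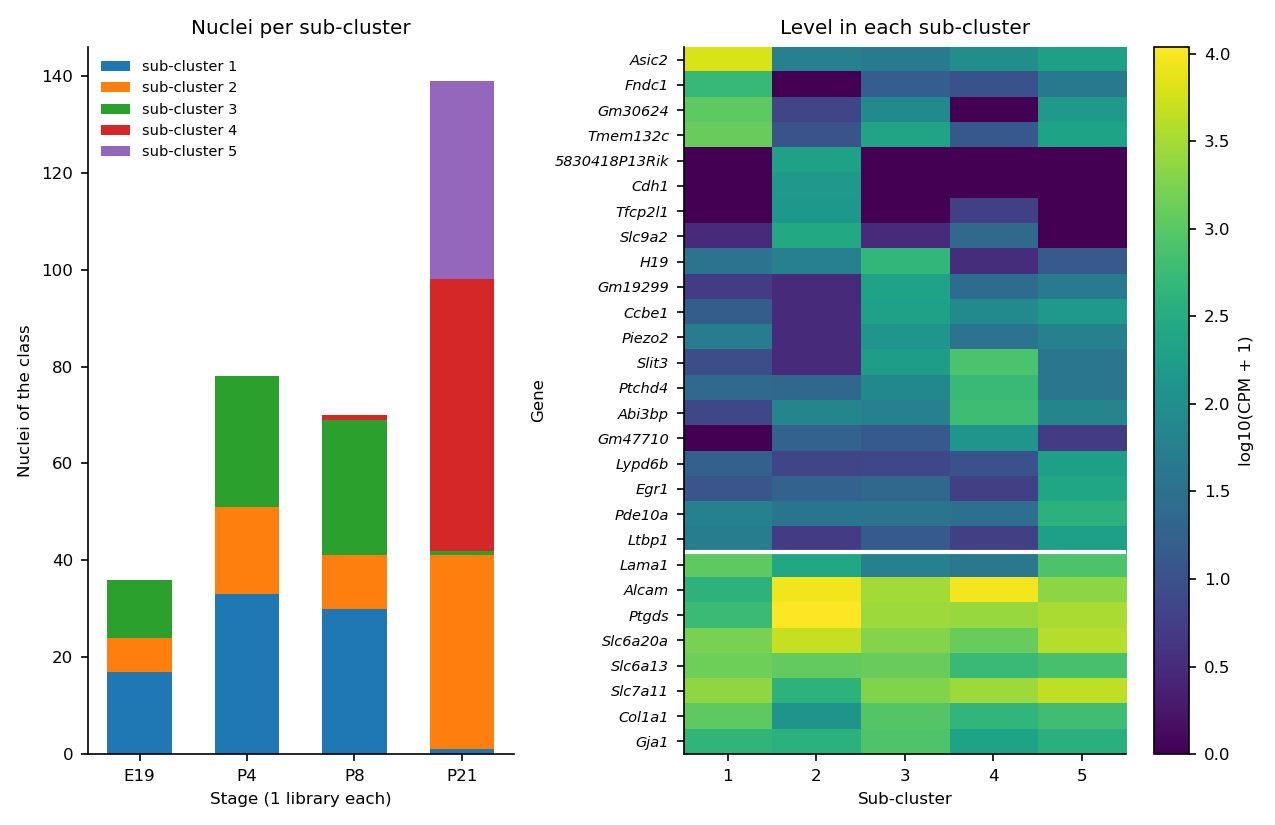
Nuclei of the class in each sub-cluster by stage (left) and the level of leading and other genes in each sub-cluster, colour giving log10(CPM + 1) (right); the genes above the white line are the first 4 leading genes of each. Sub-clusters 1 and 3 hold 1 nucleus each at P21, sub-clusters 4 and 5 hold 56 and 41 there, and sub-cluster 2 is present at all stages.

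Sub-cluster 2 alone had 10 or more nuclei in both P4 and P21, so stages could be compared within it, 18 with 40 nuclei. At resolution 0.8 it divided by age and no sub-cluster had 10 or more nuclei at both stages. Some differences of the class were also seen within it. Alcam was at 4889 CPM at P4 and 12969 at P21, Col3a1 at 277 and 43.9, Nid2 at 127 and 12, and H19 at 127 with no UMI at P21. In each the order was that of the class. Col4a1 was low at both, at 71.2 and 12 CPM. Slit3 and Cyp26b1 had no UMI there at P4, which allows up to 23.7 CPM, and 1 and 4 UMIs at P21, too few to compare. Flt1, higher at P21 in the class, was at 293 and 276 CPM, and Asic2, lower in the class, at 23.7 and 79.9 (3 and 20 UMIs). Ogn, at 63.3 and 315 CPM, and Pdgfd, at 277 and 451, were higher at P21 as in the class. Itgbl1, Abi3bp and Thsd4, higher at P21 in the class, were lower within sub-cluster 2, at 309 and 71.9, 94.9 and 51.9, and 672 and 487 CPM. Epha7, Col13a1, Sparcl1 and Col4a6, lower at P21 in the class, were higher within it, with log2 ratios of 0.20, 0.34, 0.32 and 0.65. How far the makeup of each library in sub-clusters sets these class ratios was not tested.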

How the data were processed

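The files held 1 matrix of UMI counts for 31053 genes and 9724 nuclei, which the authors deposited as raw counts, and a table of nuclei with their stage, class and per-nucleus values, among them deposited percent values of mitochondrial and ribosomal UMIs. Per the submitters' processing notes, Cell Ranger 3.0.2 and mm10 were used, and steps such as doublet removal are not given in the sources used here; no doublet caller was run on the class. One protocol text abbreviates the embryonic stage differently from the sample titles, which were followed. Of the table of nuclei 7 columns were not used.

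Counts of the nuclei of the class were summed per library and divided by their total to give CPM. Log2 ratios had 5 CPM added and were read for genes at 100 CPM or more in the higher library. A gene was class-enriched when its CPM in the higher library was at least 4 times that of all other nuclei of the library, and enriched in all 4 libraries at 4 times and 20 CPM in each. With 1 library per stage there was no residual spread to test with. Shares of nuclei with a UMI were also taken after thinning to 1500 UMIs, with random seed 0. Sub-clusters came from counts scaled to 10000 per nucleus, log-transformed, 2000 variable genes, 20 principal components, 15 neighbours and Leiden resolution 0.5. Python 3.11.15, numpy 2.4.6, scipy 1.17.1, pandas 2.3.3, scanpy 1.11.5 and leidenalg 0.10.2 were used, and the computations were tested on simulated data.

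Genes were named by rule: the 3 markers; the 10 with the largest smallest ratio over other nuclei among genes at 100 CPM in each library; between P4 and P21 the 10 largest differences in each direction among class-enriched genes and the 3 largest of all genes; the 3 largest per step; up to 3 per direction and the 3 highest within each gene list at 50 CPM; and the 10 leading genes of each sub-cluster. The rankings left out 863 genes (mitochondrial, haemoglobin, ribosomal protein, Y-linked and X-inactivation genes), and some genes picked by the rule are not reported here. Other members of a list are named to account for its counts. The class, its markers and the gene lists were chosen with earlier results of these data known. Of 153 named genes, 6 overlap a counted gene on the same strand in GENCODE M21, and their counts are less certain. Sequences were read from RefSeq tables of GRCm38.p6. The alternatives tried are given with their effect in the closing section.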

Additional observations from a re-analysis of the deposited data

Results flagged for a closer look

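Among class-enriched genes that differed 2-fold between P4 and P21, 4 differed 2-fold the opposite way in all other nuclei. With 1 library per stage the difference between the class and the other nuclei was not tested. Flt1, a receptor for VEGF, was at 81.2 CPM at P4 and 189 at P21 (log2 ratio 1.17), against 22 and 7.76 CPM (log2 ratio -1.08) in all other nuclei. In endothelial nuclei alone Flt1 was at 2108 CPM at P4 and 2739 at P21, and these were 22 nuclei at P4 and 12 at P21. Sparcl1, a matricellular protein also made by astrocytes, was at 361 CPM at P4 and 165 at P21 (log2 ratio -1.11), against 52.7 and 193 CPM (log2 ratio 1.78) in all other nuclei. Serinc5, a membrane lipid scramblase, was at 136 CPM at P4 and 33.8 at P21 (log2 ratio -1.86), against 24.8 and 65.9 CPM (log2 ratio 1.25) in all other nuclei. Ppard, a nuclear receptor for fatty acids, was at 122 CPM at P4 and 50.1 at P21 (log2 ratio -1.20), against 26.8 and 60.9 CPM (log2 ratio 1.05) in all other nuclei. For the last 3 the class was above the other nuclei at P4 and below them at P21.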

How the results depend on the processing

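No paired analysis was possible because each stage had 1 library, and for the same reason none was left out. Depth limits the E19 library most, with 36 class nuclei and a floor of 13.6 CPM. Of 153 named genes, 84 differed 2-fold between P4 and P21, of which between 44 and 84 still did, in the same direction, under 11 alternatives, the fewest with sub-clusters weighted alike. In that setting only sub-cluster 2 had the 10 nuclei needed at both stages. The alternatives that joined the nuclei labelled epithelial, left out sub-cluster 2 or left out the nucleus with the most UMIs of each gene were chosen after seeing the data.

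With non-neuronal nuclei in the denominator the shares were 10.2%, 17.6%, 12.8% and 16.8% at E19, P4, P8 and P21, and joined with the nuclei labelled epithelial they were 4.07% at P8, then 7.96% at P21. Against 117 genes higher and 170 lower at P21, median-of-ratios scaling gave 177 higher and 145 lower. Weighting sub-clusters alike gave 193 higher and 247 lower, of which only 40 and 82 were among the 117 and 170. Thinning gave 220 and 341, a limit of 50 CPM 196 and 402, and one of 200 CPM 72 and 72. E19 in place of P4 gave 214 and 323. Nuclei with UMIs of fewer than 3 neuron marker genes, 7 of 78 at P4 and 12 of 139 at P21, gave 543 and 602. In that setting 71 and 95 were among the 117 and 170. The 528 genes enriched in all libraries became 957 at 2 times the other nuclei, 335 at 8 times, 243 at 100 CPM in each library and 71 at 4 times the highest other class.

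The log2 ratio of P21 to P4 changed sign for 29 named genes among nuclei with few neuron marker genes. Those that had differed 2-fold were Slc9a2 -1.12, Itga11 0.57, Ephb1 0.62, Mfap4 0.24, Axin2 3.52 and Slc22a2 -1.13. With sub-clusters weighted alike it changed sign for 36, of which these had differed 2-fold: Rdh10 0.26, Creb3l1 0.95, Postn 0.0103, Epha7 0.20, Sparcl1 0.32, Ctgf -0.50, Col13a1 0.34, Igf1 -1.21, Itgbl1 -2.03, Thsd4 -0.46, Ephb1 1.35, Mfap4 0.26, Asic2 1.56, Vcan 1.38, Abi3bp -0.81 and Rbp4 -3.16. Both settings rest on fewer nuclei, and the cause was not tested.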

Other observations

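Bnc2, one of the class markers, was at 6816 CPM in the nuclei labelled epithelial against 921 in the class pooled over libraries. Sub-cluster 2 of the class, which had Bnc2 at 2426 CPM, was the only one with a Cdh1 UMI, while the nuclei labelled epithelial also held Slc47a1, which was at 1.89 CPM in the class. The labels of the authors were kept as deposited.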
